A study of Caenorhabditis elegans with 2 samples.

Results

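The 8 genes described here are the G protein-coupled receptor kinase genes grk-1 and grk-2 and the cyclic nucleotide phosphodiesterase genes pde-1 to pde-6 of Caenorhabditis elegans, 8 of 19973 nuclear protein-coding genes in the annotation. They were read in a chromatin immunoprecipitation and sequencing (ChIP-seq) experiment on EGRH-3, which belongs to the zinc finger proteins related to early growth response (EGR) factors. The set was chosen by peak strength at 2 of its genes, since grk-1 and pde-6 lie at strong promoter peaks, so the values of those peaks are given as descriptions without a test. The worms were of strain RW12196, in which egrh-3 at its own locus (chromosome IV) carries a TY1, EGFP and 3xFLAG tag placed by CRISPR, and chromatin from whole young adults was collected at 65 h and pulled down with an antibody against GFP. There was 1 group of 2 biological replicates, both of that strain. Untagged worms were not analysed here, so no summit could be told from background enrichment, and whole-worm chromatin does not show in which cells a site was occupied. Each gene was given a window from 2000 bp upstream of its first annotated transcript 5' end to the end of the gene, and every peak whose summit fell in that window was taken from all 8 deposited lists.

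Receptor kinases phosphorylate G protein-coupled receptors that have been switched on by their ligand, which lets arrestin bind and ends the signal. Receptors that act through G proteins change the level of cyclic AMP or cyclic GMP, second messengers made by adenylyl and guanylyl cyclases, and phosphodiesterases break these messengers down. In C. elegans both classes are best known from sensory neurons and neuromuscular signalling, where grk-2 is needed for normal chemosensation and cyclic GMP carries many sensory signals. EGR proteins of mammals bind GC-rich DNA through 3 zinc fingers, and their best known site is GCGTGGGCG.

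The DNA at the summits of grk-1 and pde-4 is shown because these are the places where a receptor kinase gene and a cyclic AMP phosphodiesterase gene had a peak. Each line holds the 101 bases centred on a summit of the conservative list (the smaller of the 2 series-level thresholded lists, which both derive from the 2 replicates together), read on the plus strand of ce11, the assembly also named WBcel235. Capitals mark a run of C at grk-1 and a repeat of CGA at the stronger pde-4 summit; the weaker pde-4 summit had neither. The windows are chrX:9999674-9999774, chrII:7642016-7642116 and chrII:7642218-7642318.
grk-1: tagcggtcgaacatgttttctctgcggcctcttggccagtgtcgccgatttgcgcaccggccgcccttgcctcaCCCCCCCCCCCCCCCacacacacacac
pde-4, stronger: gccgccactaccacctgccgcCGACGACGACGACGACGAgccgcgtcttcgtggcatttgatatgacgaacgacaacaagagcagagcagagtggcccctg
pde-4, weaker: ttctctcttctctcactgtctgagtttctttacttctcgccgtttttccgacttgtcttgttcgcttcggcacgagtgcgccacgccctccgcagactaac

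Of the 8 genes, grk-1, pde-4 and pde-6 had a conservative summit in their window and grk-2, pde-1, pde-2, pde-3 and pde-5 had none. These 3 of 8 stand beside 10.03% of all 19973 protein-coding genes with a conservative summit in a window built the same way, and nothing is read from that difference because 2 of the 3 were chosen for their peaks. Longer windows held a summit more often: the share over all genes was 8.45% for windows under 8 kb, 18.78% for windows of 8 to 15 kb and 30.76% for longer ones. Of the members, 0 of 2 had a summit in the shortest class, 2 of 4 in the middle class and 1 of 2 in the longest. The 3 genes held 5 conservative summits, 1 at grk-1 and 2 each at pde-4 and pde-6. Thus pde-4 and pde-6 alone of the 8 genes had 2 or more, beside 2.09% of all genes. The 2 pde-4 intervals overlapped, and the larger list held only 1 of these summits. The 2.09% covers windows of all lengths, and pde-6 was chosen for its peak. Nothing is therefore read from this count.

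The same 3 genes had a summit in every thresholded list. A thresholded list keeps the regions that passed a global irreproducible discovery rate (IDR) of 0.01, the estimated share of irreproducible regions among those ranked as high or higher, and a ranked list holds the weaker ones too. The larger thresholded list of the series held 4 summits in these 3 windows. Thus 3 of the 8 genes had a summit in it, beside 13.92% of all genes. Replicate 1 gave 7 summits in its own thresholded list and replicate 2 gave 4, and the shares of all genes were 12.01% in replicate 1 and 7.08% in replicate 2. Of the 8 genes, 3 had a summit in the thresholded lists of both replicates, beside 5.69% of all genes. Nothing is read from that difference, because 2 of the 3 were chosen for their peaks and all 3 have a conservative summit. In the ranked lists every member but pde-5 had at least 1 row in each replicate. Such rows are common, as only 29.76% of all genes had no row in any of the 8 lists. The share of all genes for each replicate's ranked list alone is not given here, so nothing is read from this count.

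**Figure D1:**
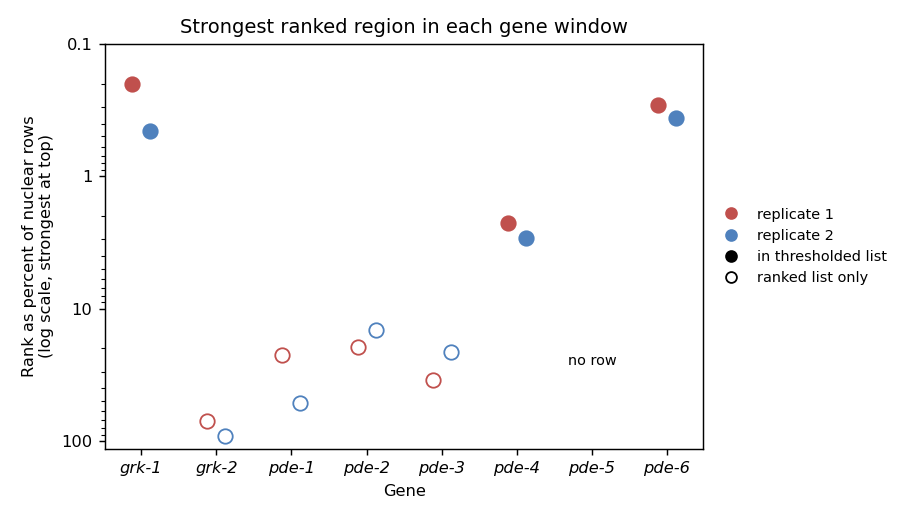
The vertical axis gives the rank of the strongest ranked region in each gene window as a percent of that replicate's nuclear rows, on a log scale with the strongest at the top; each point is 1 replicate, filled where the region is also in the thresholded list. grk-1, pde-4 and pde-6 stood within the top 2.95% in both replicates, the next gene stood at 14.6% or lower, and pde-5 had no row.

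grk-1 encodes a receptor kinase (WBGene00001708, chromosome X, 9991248 to 9999208, minus strand, 1 annotated transcript). Its single conservative peak covered 9999487 to 9999994, and its summit, 9999724, was 516 bp upstream of the gene's 5' end. The signal, the authors' own value for the strength of a peak, was 1651, which ranked 19 of 2194 nuclear conservative peaks. The noncoding RNA genes F19C6.9 (plus strand) and F19C6.11 (minus strand) overlap the summit, and no other protein-coding gene has a 5' end within 1000 bp downstream of it. The peak had the same interval and summit in the conservative list, the larger list and both series-level ranked lists.

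The grk-1 peak was found in both replicates. The signal was 1332 in replicate 1, rank 11 of 2850 in its thresholded list, with the summit again at 9999724. In replicate 2 the signal was 332, rank 46 of 1439, with the summit 17 bp away at 9999741. That gap is within the quartiles of 11 and 55.8 bp between replicate summits over conservative peaks. Signals of different lists have no stated common scale, so the ranks are the fairer comparison, and the ranked lists put the region at 0.2% from the top in replicate 1 and 0.454% in replicate 2. The ratio of the replicate 1 signal to the replicate 2 signal was 4.02, above the middle range of 1.08 to 2.70 (quartiles, median 1.64) over the 2070 conservative peaks with a value in both. The ratio was 3.37 at the pde-6 summit upstream of the gene, also above that range. At pde-4 it was 2.43 and at the pde-6 summit inside the gene 1.76, both within the range. The remaining ranked rows in the window were weak, with signals of at most 23.8 in any list.

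grk-2 encodes the other receptor kinase (WBGene00001709, chromosome III, 676122 to 680658, plus strand) and had no summit in any thresholded list. Its only row in the conservative ranked list, the ranked list that holds every conservative peak, was at 678095 in a coding exon, with a signal of 17.5, a rank of 20676 of 26716 and a global IDR of 0.711. Replicate 1 had a row 11 bp from there with a signal of 11.8. Replicate 2 had its single row elsewhere, at 676958 in an intron, with a signal of 9.52. No ranked summit of one replicate lay within 200 bp of one of the other at grk-2, and the nearest conservative summit was 113127 bp beyond the window.

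pde-4 encodes the worm's counterpart of the mammalian cyclic AMP-specific phosphodiesterases (WBGene00020114, chromosome II, 7627250 to 7651246, minus strand). The gene has 9 annotated transcripts with 9 different 5' ends, and both conservative summits lay at internal ones. The stronger summit was at 7642066, 98 bp downstream of the 5' end of transcript R153.1d.1, 6 bp downstream of that of R153.1f.1 and 9180 bp inside the gene as counted from its outermost 5' end. It fell in a coding exon. Its interval ran from 7641885 to 7642261, and its signal of 243 ranked 500 of 2194. The weaker summit at 7642268 lay 202 bp from the first, 104 bp upstream of the R153.1d.1 end and in an intron of the longer transcripts, with a signal of 63.0 and a rank of 2103. Its interval, 7642068 to 7642467, overlapped that of the stronger summit. No other gene overlapped either base.

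Both replicates had a region over the pde-4 summits, and only replicate 1 split it into 2 summits. Replicate 1 placed the stronger summit at 7642033 with a signal of 181 (rank 487 of 2850) and a second summit of the same interval at 7642239 with a signal of 65.2 (rank 1894). Replicate 2 had a single summit at 7642140 with a signal of 74.6 (rank 602 of 1439), in a 5' UTR. It lay between the 2 conservative summits. Its interval, 7641952 to 7642327, covered both, so it cannot be given to either alone. The replicates' main summits were thus 107 bp apart, against a median of 27 bp and an upper quartile of 55.8 bp over the 2070 conservative peaks. For the weaker conservative summit, replicate 2 had no ranked summit within 100 bp, and the region that covered it there was that of the single summit. The weaker summit had a global IDR of 9.56e-04 in the conservative ranked list and 0.0462 in the larger ranked list, the one that holds every peak of the larger list, and it is absent from the larger list.

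pde-6 encodes a second cyclic AMP phosphodiesterase (WBGene00022389, chromosome I, 872755 to 882713, minus strand, 3 transcripts). It had 2 strong conservative summits 908 bp apart. The first, at 882798 in an interval from 882416 to 883095, lay 85 bp upstream of the 5' end shared by transcripts Y95B8A.10a.1 and Y95B8A.10b.1, with a signal of 1315 and rank 30. It also lay 120 bp upstream of the divergent gene Y95B8A.6, so the summit cannot be given to either gene alone. The second, at 881890 in an interval from 881679 to 882095, lay 823 bp inside pde-6 in an intron, with a signal of 1157 and rank 41. No other gene overlapped it.

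Both pde-6 summits recurred in both replicates to within 10 bp. The upstream summit had a signal of 1025 at 882805 in replicate 1 and of 305 at 882797 in replicate 2, a gap of 8 bp. The intronic summit had a signal of 739.8 at 881888 in replicate 1 and of 421 at 881890 in replicate 2, a gap of 2 bp. The order of the pair differed between replicates: the upstream summit was the stronger in replicate 1 (rank 23 of 2850 against 48) and the intronic one in replicate 2 (rank 30 of 1439 against 57). With 1 value per replicate this difference has no error of its own.

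Further into pde-6, replicate 1 alone passed 2 more summits, both in coding exons. One at 876494 had a signal of 63.3 (rank 1962 of 2850) and one at 878238 a signal of 56.9 (rank 2213), with global IDRs of 0.00127 and 0.00267 in the ranked list of replicate 1. The larger ranked list placed a summit near each, at 876481 with a global IDR of 0.0119, just past the threshold of 0.01, and at 878218 with 0.0357. In the conservative ranked list only the one at 878218 was present, with a global IDR of 0.534. Replicate 2 had no ranked summit within 200 bp of either.

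**Figure D2:**
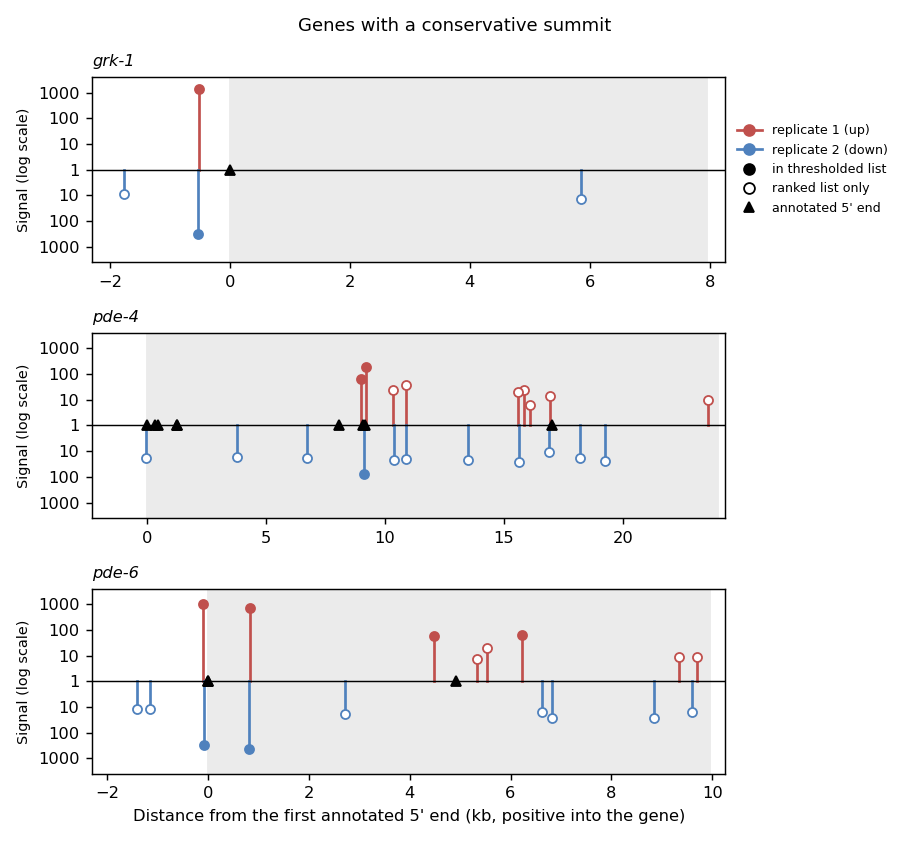
Each panel shows a gene with a conservative summit, with the distance from its first annotated 5' end in kb on the horizontal axis and the gene body in grey; stems give the signal of every ranked row on a log scale, replicate 1 upward and replicate 2 downward, filled where the row is in the thresholded list, and triangles mark annotated 5' ends. The strong summits sit 516 bp upstream at grk-1, at an internal 5' end 9180 bp into pde-4, and 85 bp upstream and 823 bp inside pde-6.

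The remaining 4 phosphodiesterase genes, which in C. elegans are known as cyclic GMP phosphodiesterases, had no summit in any thresholded list. In the conservative ranked list pde-2 (WBGene00011146, chromosome III, 8975069 to 8981897, minus strand) came closest. Its strongest row in the conservative ranked list stood 436 bp upstream of the gene at 8982333, with a signal of 51.6, a rank of 5323 of 26716 and a global IDR of 0.0704. The replicates agreed on the base, with summits at 8982332 in replicate 1 (signal 22.9) and 8982333 in replicate 2 (signal 31.3). The global IDR there was 0.517 in the larger ranked list, 0.221 in replicate 1 and 0.673 in replicate 2. A second pde-2 region in the 3' UTR, at 8975231, was the strongest of replicate 1 with a signal of 32.4 and a global IDR of 0.0434. The nearby summit at 8975205 had a global IDR of 0.094 in the conservative ranked list and 0.428 in the larger one.

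pde-3 and pde-1 had weak rows only. pde-3 (WBGene00008443, chromosome II, 14919705 to 14953353, plus strand), a long gene with 10 transcripts and 8 distinct 5' ends, had 13 ranked rows in replicate 1, of which 4 had a row of the other replicate within 200 bp, and 9 in replicate 2, of which 5 had one. Its strongest row in the conservative ranked list was at 14950610 in a coding exon, with a signal of 41.4 and a global IDR of 0.329, and neither replicate had its own strongest row there. pde-1 (WBGene00011433, chromosome I, 13310887 to 13318716, minus strand), of the class that in mammals is stimulated by calcium and calmodulin, had 4 rows in each replicate, none within 200 bp of a row of the other. Its strongest row in the conservative ranked list was at 13318118 in an intron, with a signal of 23.3 and a global IDR of 0.311. A conservative summit of signal 96.8 lay just outside the pde-1 window, 459 bp past the gene's 3' end at 13310428, inside the neighbouring gene T04D3.8.

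pde-5 (WBGene00016328, chromosome I, 5196073 to 5200263, plus strand) had no row in any of the 8 lists, as did 29.76% of all protein-coding genes. Its window of 6.19 kb was the shortest of the 8. For the members other than pde-1 the nearest conservative summit outside the window lay 9961 bp (pde-2) to 148315 bp (pde-4) away. Over all 8 windows, 20 of 46 ranked rows of replicate 1 had a row of replicate 2 within 200 bp (43.5%), against 43.7% of all 26494 nuclear rows. In the other direction the counts were 18 of 44 (40.9%), against 44.4% of 25577.

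**Figure D3:**
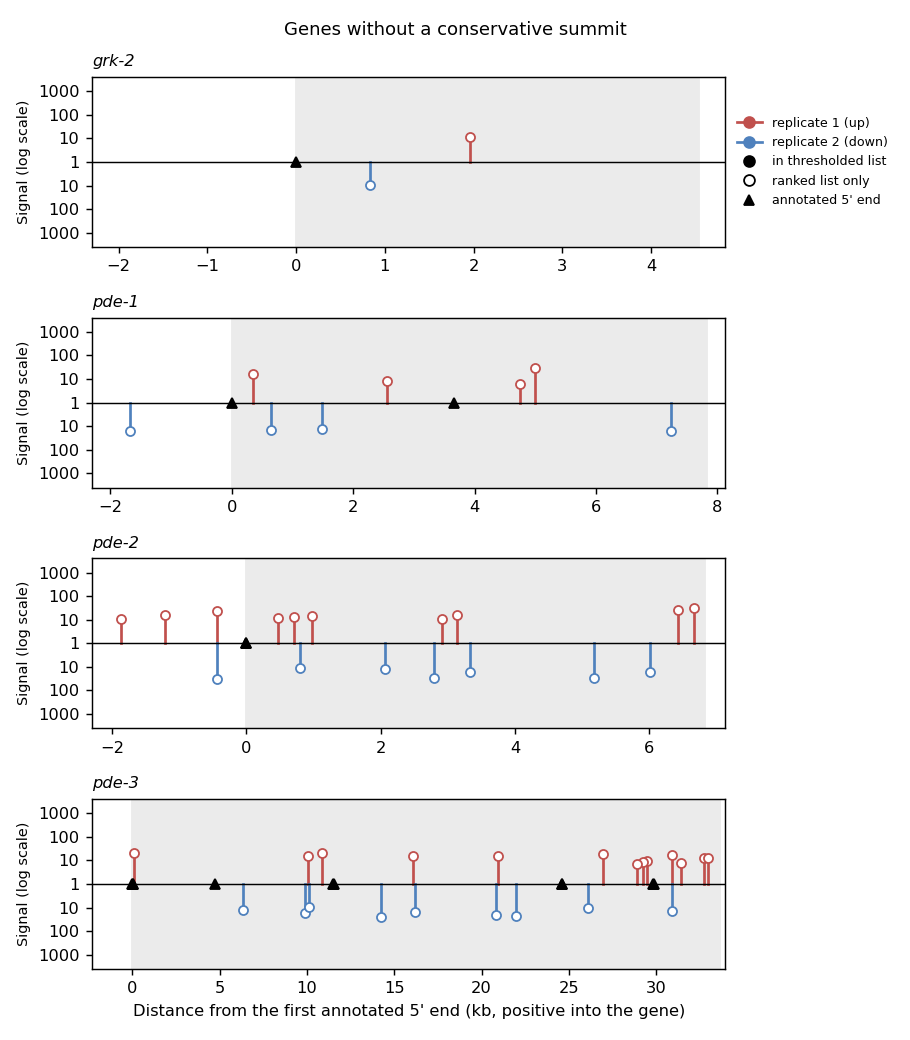
The panels show the 4 members with ranked rows but no conservative summit, drawn with the same axes and symbols as the map of the genes that have one. All symbols are open, no signal exceeds 32.4, and only at pde-2, 436 bp upstream, and at scattered places in pde-2 and pde-3 do the replicates share a position.

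The letters at the 5 summits were compared with those at all 2194 nuclear conservative summits. Within 50 bp, none of the 5 held GTGGGCG or GTGGGTG on either strand, and none held GCGTGGGCG, which contains GTGGGCG. Over all summits 1.91% held GTGGGCG and 1.41% held GTGGGTG, and over 992797 windows of 101 bp tiled along the genome the shares were 0.604% and 0.515%. GCGTGGGCG was within 50 bp of 0 of the 2194 summits and in 0.0313% of the genome windows. Within 100 bp of the 5 summits there was no match either.

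GC content within 50 bp was 66.3% at grk-1, 68.3% and 65.4% at the upstream and intronic summits of pde-6, and 62.4% and 52.5% at the stronger and weaker summits of pde-4. The median over all conservative summits was 57.4% (quartiles 50.5% and 62.4%) and the nuclear genome as a whole had 35.4%. The 3 strongest member summits were thus in the GC-rich part of the list, above its upper quartile, and the weaker pde-4 summit was below the median. Most other conservative summits with signals between those of grk-1 and the intronic pde-6 summit were also above that quartile. Some summits of higher signal than grk-1 lay far below the median. The high GC content is therefore not read as particular to these genes.

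**Figure D4:**
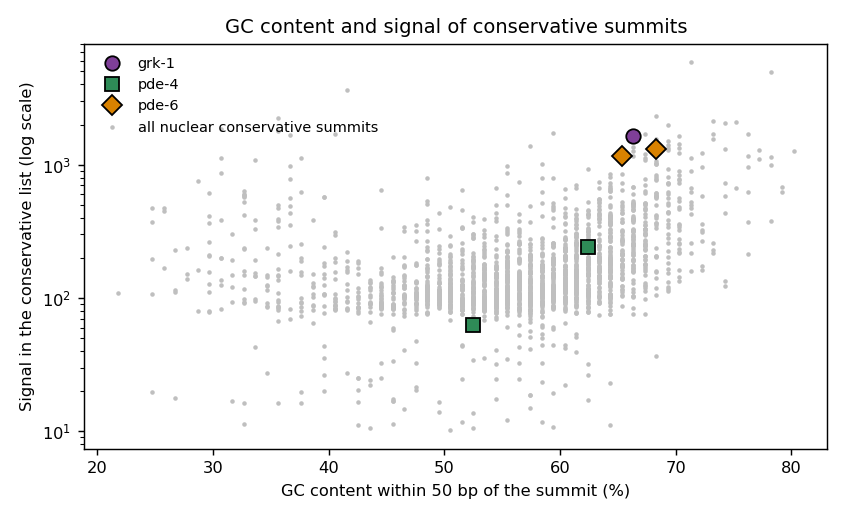
Each point is a nuclear conservative summit, with GC content within 50 bp on the horizontal axis and the deposited signal on a log vertical axis; coloured symbols are the 5 member summits and grey points all 2194. The grk-1 and pde-6 symbols stand at 65.4% to 68.3% GC and signals of 1157 to 1651, and the pde-4 symbols at 52.5% and 62.4% GC.

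A repeat of CGA was found at 3 of the 5 summits, a feature chosen after the letters were seen and therefore given without a test. The stronger pde-4 summit had 6 units in a row on the plus strand, the capitals in the sequence above, ending 12 bp before the summit. Each pde-6 summit had 4 units. Counting a 12-base stretch of the repeat in any phase and on either strand, these 3 were among 7 of 2194 conservative summits (0.319%), and the stretch was in 0.0323% of genome windows. Of the 500 strongest conservative summits 4 held it (0.8%). The grk-1 summit had no such repeat but a run of 15 C that began 24 bp from the summit and was followed by a CA repeat; runs of C or G of that length or longer were within 50 bp of 2.19% of conservative summits. How reads from such repeats were mapped and filtered was not tested.

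Other genes of receptor and cyclic nucleotide signalling were read with the same windows. Of 92 symbols in 8 lists 91 were found in the annotation, and 18 of them (19.8%) had a conservative summit, beside 10.03% of all genes. Most of these stood in 3 lists: 7 of 15 genes of the regulator of G protein signalling and arrestin list, 3 of 4 cyclic nucleotide-dependent kinase genes, and 2 of 4 genes for G protein beta and gamma subunits. Among the cyclases that make the messengers, 3 of 33 guanylyl cyclase genes and 0 of 4 adenylyl cyclase genes had one, as did 2 of 22 G protein alpha genes, 0 of 6 cyclic nucleotide-gated channel genes and 1 of 3 other effectors. The kinase genes had long windows (median 26.9 kb), the class in which 30.76% of all genes had a summit. When only promoters were counted, from 1000 bp upstream to 200 bp downstream of a 5' end, 10 of the 91 genes had a summit, beside 4.86% of all genes. The lists were chosen with earlier results of these data known, and nothing particular to them is read from these counts.

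The strongest summits in these lists stood at the G protein alpha genes. egl-30, the Gq alpha subunit, had a signal of 924 in its 5' UTR (chromosome I, 1836787, rank 61) and gsa-1, the Gs alpha subunit that stimulates adenylyl cyclase, had 740.2 at 296 bp upstream (1068188, rank 84); each had 3 summits in its window and both replicates passed the strongest. gpb-1, a beta subunit, had 458 in an intron and gpc-2, a gamma subunit, had 86.2 at 519 bp upstream. kin-1, the catalytic subunit of protein kinase A, had 321, kin-2, its regulatory subunit, had 135, and egl-4, the cyclic GMP-dependent kinase, had 99.0, all in introns. In the regulator and arrestin list the highest were egl-10 at 214 in a coding exon, rgs-10 at 186, where the summit lay inside idpp-3, and eat-16 at 171, where it lay inside ocrl-1. arr-1, the arrestin that binds receptors phosphorylated by these kinases, had a summit of signal 135 at 1131 bp upstream, present in both replicates' thresholded lists. The guanylyl cyclase summits were at gcy-8 with 217, inside the ribosomal protein gene rps-2, gcy-28 with 172 and gcy-35 with 169.7, and the effector crtc-1 had 85.9. Of these 18 genes, 11 had a thresholded summit of both replicates within 200 bp of the strongest conservative one, 4 of replicate 1 only, among them gcy-8, egl-10 and kin-2, and 3 of neither, among them gpc-2 and crtc-1.

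**Figure D5:**
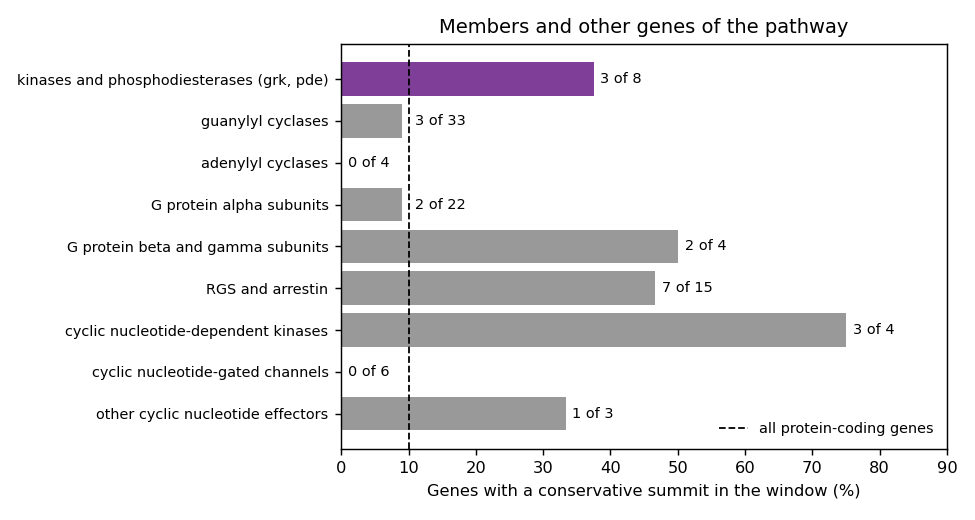
Bars give the percent of genes in each list with a conservative summit in the window, with counts beside them, the receptor kinases and phosphodiesterases at the top and 8 other lists of the pathway beneath; the dashed line is the 10.03% of all protein-coding genes. The members stand at 3 of 8, and 4 of the 8 other lists stand above the dashed line.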

How the data were processed

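ChIP-seq of the tagged protein was done on 2 biological replicates, with chromatin fragments of 200 to 800 bp after sonication, per the labels. The deposited peak lists are on ce11, per the labels, and no source used here names the aligner, the peak caller or their versions. Each list gives per peak the authors' signal, a deposited −log10 q-value (not used here), and a deposited score of up to 1000 that follows the global IDR; the ranked lists also give the deposited −log10 of that IDR. The authors set an IDR threshold before deposit. The files hold no read counts, so the depth of each replicate is unknown.

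Nuclear peaks only were used, and ranks are by signal within a list. Windows were drawn from the Ensembl annotation of WBcel235, whose chromosomes are those of ce11, and sequences were read from the RefSeq copy of that assembly. In worms, trans-splicing can place an annotated 5' end downstream of the start of transcription. Replicate values at a conservative summit came from the strongest region of the replicate's ranked list that covered it. Members, lists and tests were chosen with earlier results of these data known. With 1 group no test between conditions was possible, and no p-value is given. All 8 members and their summits were named, with the 3 strongest genes of each other list and, chosen after values were seen, arr-1. Alternative lists, thresholds, windows, assignments and motif settings were tried. The window and motif searches were checked on simulated data. The work was done in Python 3.11.15 with numpy 2.4.6.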

Additional observations from a re-analysis of the deposited data

How the results depend on the processing

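The count of 3 of 8 genes with a summit was unchanged in the larger list, at an IDR under 0.001 and among peaks above the median signal. Because grk-1 and pde-6 were chosen for strong peaks, these stricter cuts could not remove them. The count also held with windows of 1000 bp upstream, with promoter windows of 1000 or 2000 bp upstream, at interval midpoints, and in either replicate's own list. With each summit given to the nearest protein-coding gene alone, which passes over the noncoding RNA genes at the grk-1 summit, the count was again 3. With 500 bp upstream it was 2, because the grk-1 summit lies at 516 bp. The count of 5 summits ranged from 4 to 7 over the same alternatives, with 4 in replicate 2 and 7 in replicate 1 alone. All 3 genes kept a summit in both replicates when their summits had to lie within 200 bp, with windows of 1000 bp upstream, and when equal numbers of the strongest peaks were taken. The other pathway genes with a summit numbered 23 in the larger list and 10 with promoter windows of 1000 bp upstream, against 18; the promoter windows both leave out gene bodies and reach less far upstream, and these changes were not separated. Of the 5 summits, 4 had a ranked summit within 100 bp in both replicates; the weaker pde-4 summit did not. No paired analysis was possible because there was 1 group.

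The limits are 2 replicates, no read depth, no untagged strain, and signals without a stated scale. Occupancy below a list's threshold was not measured.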

Other observations

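The other 4 conservative summits with a 12-base CGA repeat within 50 bp fell in the windows of hlh-11 (signal 336, rank 322), let-526 (99.1, rank 1669), egl-27 (90.2, rank 1863) and gpr-158 (85.6, rank 1950). Because pde-6 was chosen for its strong peak, nothing is read from the order of the 7 by signal. The intronic pde-6 summit lay also in the window of the divergent gene Y95B8A.6, which therefore shared both pde-6 summits by the window rule.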
